A study of Sus scrofa with 22 samples.

Results

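Gene expression in the jejunal mucosa of pigs on a Western dietary pattern was compared with that of pigs on a heart healthy pattern, with both heart healthy groups as one side. The Western side held the 7 libraries whose diet label reads Atherogenic + Statin (WD_S). The heart healthy side held 15 libraries, 7 labelled Heart Healthy (HHD) and 8 labelled Heart Healthy + Statin (HHD_S). These are all 22 libraries analysed here, and each came from a separate Ossabaw pig, a small breed that becomes obese and develops atherosclerosis on rich diets.

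Both patterns supplied 38% of energy as fat and were fed for 6 months. The Western pattern was rich in butter fat, cholesterol, sugar and white flour and low in fibre. The heart healthy pattern was rich in canola, soybean and corn oils, whole grains, fruit, vegetables and fibre and low in cholesterol, and its pigs were also given fish oil capsules of 1000 mg. Atorvastatin, which inhibits an early enzyme of cholesterol synthesis, was dosed at 20 mg per day in the first 3 months and 40 mg per day in the last 3 months in all 7 WD_S pigs, in all 8 HHD_S pigs and in none of the 7 HHD pigs. The drug was therefore unequal between the sides, whereas every HHD_S pig had it. Values against HHD_S alone are given for ABCG1, RELT, SQLE, APOD, FADS1, SCD, NR0B2, LRRC25, S100A1, G6PC, CYP1B1 and SLC7A11. The fish oil came with the heart healthy pattern and cannot be told apart from it. The series text uses an abbreviation for the Western pattern without drug that the titles of WD_S carry, and the diet labels, which give the drug, were followed. If the titles were right instead, the WD_S pigs had no drug and HHD would be the group matched for it. A Western pattern without drug was not analysed here. The labels give neither the sex nor the age of each pig.

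Cells of the small intestine balance their cholesterol through a pair of opposed programmes. When sterol is plentiful, oxysterols activate the liver X receptors (LXR), which switch on exporters such as ABCG1 and ABCA1 together with SREBF1 and SCD, while the SREBP2 transcription factor is held back and the enzymes of cholesterol synthesis fall. Polyunsaturated fat lowers the expression of desaturases such as SCD, and dietary sugar raises the fructose transporter SLC2A5 and the enzymes of fructose breakdown through the sugar-sensing factor MLXIPL.

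Each library held 15.3 to 31.6 M uniquely mapped exon reads, and 13626 of 24358 genes passed the filter on low counts. The enterocyte markers VIL1, FABP2 and SI were high in every library, with lowest values of 981, 3380 and 3745 CPM (counts of a gene per M counts of its library, after scaling the library sizes). The stomach markers GKN1 and PGC and the colon marker HOXB13 had a median of 0 CPM. The colon marker AQP8 was counted in every library, at 17.0 to 147 CPM. In a component analysis of the 500 most variable genes, 4 libraries stood apart on component 2 (WD_S 7, HHD 7, HHD_S 7 and HHD_S 8), with values of at least 14.3 against at most 5.59 elsewhere. All 4 are among the 5 libraries with the latest animal numbers, and values without those 5 are given for the leading genes and the interferon genes. Component 1 followed the Y-linked gene KDM5D. The 10 libraries with KDM5D counts lay at 7.26 or above and the 12 without lay at -6.18 or below. KDM5D was counted in 3 of 7 WD_S and 7 of 15 heart healthy libraries.

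One named gene passed the test. ABCG1, which exports cholesterol from cells to lipoproteins, rose in WD_S, and it was the 1 gene of 13626 called (0.00734%) by edgeR's quasi-likelihood test at a Benjamini-Hochberg adjusted p under 0.05. An unadjusted p under 0.05 was reached by 505 genes (3.71%), of which 283 were higher (2.08%) and 222 lower (1.63%) in WD_S. With no gene differing, a share of about 0.05 would be expected, so these 505 genes were no excess. Genes named below for such a p are described and are not calls. Log2 fold changes (WD_S minus the heart healthy side) were positive for 46.8% and negative for 53.2% of all genes tested, with a median of -0.0094. With the same design DESeq2 called 4 genes (ABCG1, APOD, RELT and SQLE) and limma with quality weights called 3 (ABCG1, RELT and SQLE). For 0 genes (0%) did the values of the 2 sides not overlap at all. In 16 genes (0.117%) at least 5 WD_S libraries lay above every heart healthy library, and in 7 genes (0.0514%) at least 5 lay below every one. Those with 5 above included ABCG1, RELT and the intestinal transcription factor CDX2, and those with 5 below included SQLE and CA2. The median standard error of a log2 fold change was 0.14.

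**Figure D1:**
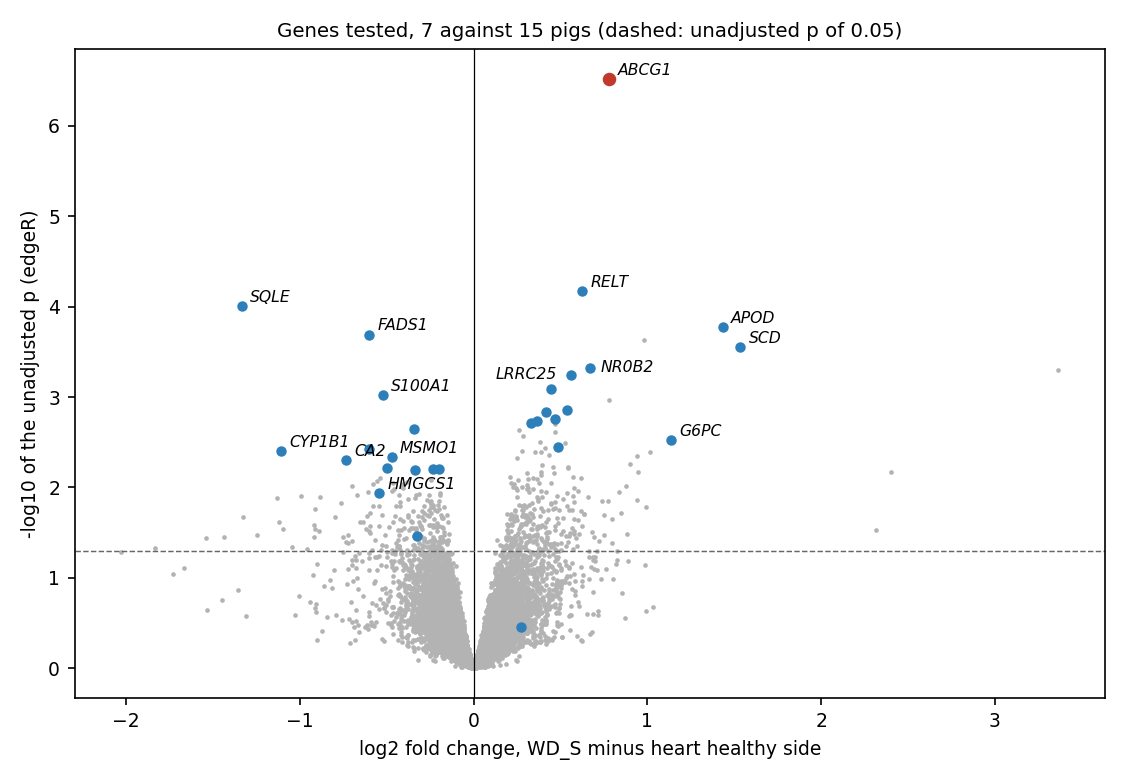
Each point is a gene tested, with the log2 fold change (WD_S minus the heart healthy side) on the horizontal axis and minus log10 of the unadjusted edgeR p on the vertical axis. ABCG1 (red) is the gene that passed the adjusted threshold, and the blue points are the 29 genes named by rule, among them SQLE and FADS1 on the left and SCD, APOD and RELT on the right.

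ABCG1 (ENSSSCG00000027745, chromosome 13, 205561897 to 205628428, RefSeq gene span on Sscrofa11.1) was the clearest difference between the sides. Its values in WD_S were 24.4 CPM at the lowest, 32.3 CPM at the median and 39.1 CPM at the highest. On the heart healthy side they were 14.6, 18.6 and 27.6 CPM. All 7 WD_S libraries were above 14 of the 15 heart healthy libraries, and the overlap came from HHD_S 8, the one heart healthy library above 20.6 CPM. The means were 31.9 ± 5.67 CPM (SD, n = 7) in WD_S and 18.5 ± 3.14 CPM (SD, n = 15) on the heart healthy side. This gave a log2 fold change of 0.78 (SE 0.110, 95% interval 0.55 to 1.01) and an edgeR adjusted p of 0.00412.

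The heart healthy groups were close to each other for ABCG1, with means of 17.8 ± 2.02 CPM (SD, n = 7) in HHD and 19.1 ± 3.91 CPM (SD, n = 8) in HHD_S. Their difference (HHD_S minus HHD) was 0.10 on the log2 scale (95% interval -0.17 to 0.37). Against HHD alone the log2 fold change of WD_S was 0.84 (edgeR adjusted p = 0.0410), and against HHD_S alone it was 0.74 (edgeR adjusted p = 0.0641). Within library pool 3 (3 WD_S and 10 heart healthy libraries) it was 0.91 and within pool 4 (4 and 5 libraries) 0.65, and neither pool alone gave a call (edgeR adjusted p = 0.0865 and 0.9996). The test of the difference between pools had an unadjusted edgeR p of 0.269. Without the 5 libraries with late animal numbers the value was 0.91 (edgeR adjusted p = 0.000825), and with a Y-linked covariate it was 0.77 (edgeR adjusted p = 0.00121). The call was lost without WD_S 1, which had the highest ABCG1 level (0.71, edgeR adjusted p = 0.0503), and with library totals in place of TMM-scaled sizes (0.76, edgeR adjusted p = 0.142).

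ABCG1 is also expressed by macrophages. Markers of macrophages and dendritic cells had positive values in 11 of 15 tested members, against 46.8% of all genes. Their median log2 fold change was 0.16, and none had an unadjusted p under 0.05. Their summed level ran from 1404 to 3181 CPM in WD_S and from 962 to 4569 CPM on the heart healthy side, and none of the 16 measured members was at 0 throughout. In bulk tissue, more cells of a type and more RNA per cell cannot be told apart. The part of macrophages and dendritic cells in the ABCG1 difference was not tested.

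**Figure D2:**
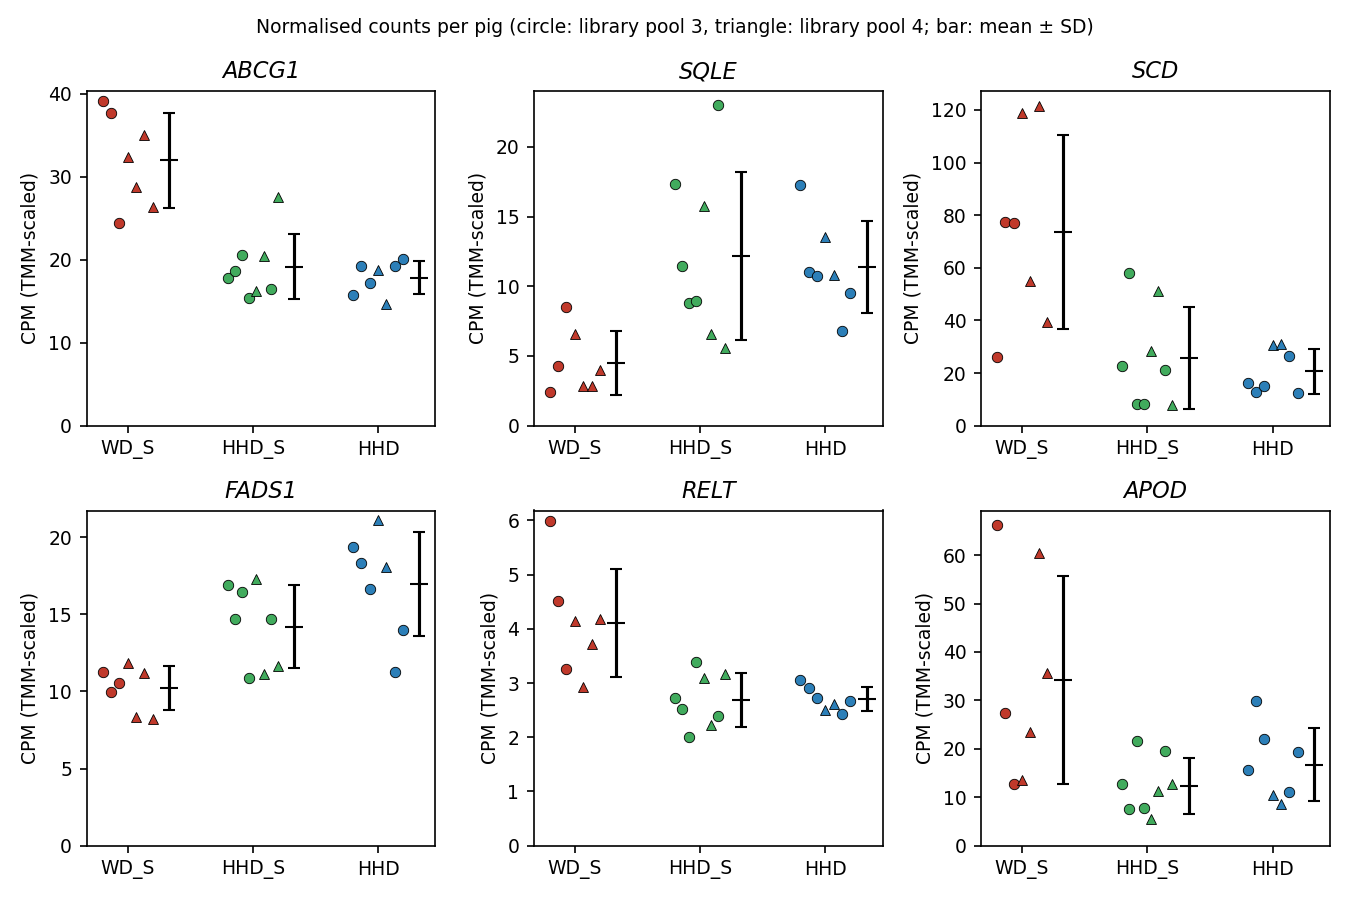
Normalised counts (CPM, TMM-scaled, vertical axis) of 6 genes in every pig of WD_S, HHD_S and HHD, with circles for library pool 3, triangles for pool 4 and bars for the mean ± SD. ABCG1 in WD_S spans 24.4 to 39.1 CPM above all but one heart healthy pig, whereas SCD and APOD in WD_S are scattered and reach down into the heart healthy range.

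Beside ABCG1, no gene of sterol efflux and the LXR programme passed the test. Of 14 tested members, ABCG1 included, 12 had positive log2 fold changes, against 46.8% of all genes, and the median was 0.17. In the positive direction 3 had an unadjusted p under 0.05, beside 2.08% of all genes, and in the negative one 0. SCD, which makes monounsaturated fatty acids (ENSSSCG00000010554, chromosome 14, 111461560 to 111478033), was at 26.0 CPM in the lowest, 77.0 CPM in the median and 122 CPM in the highest WD_S library. Its heart healthy values were 7.89, 21.0 and 57.9 CPM. In 4 WD_S libraries SCD was above every heart healthy library (as for 0.528% of all genes with 4 or more), and 6 heart healthy libraries were at or above the lowest WD_S library. SCD differed by 1.54 on the log2 scale (SE 0.355, edgeR adjusted p = 0.546), by 1.59 in pool 3 and by 1.49 in pool 4. SREBF1, the transcription factor of fatty acid synthesis (chromosome 12, 60733967 to 60750951), had 157 to 327 CPM in WD_S with a median of 192, and 16.4 to 312 CPM with a median of 121 on the heart healthy side. The ranges overlapped in 3 heart healthy libraries, and the value was 0.88 (SE 0.386, edgeR adjusted p = 0.9996). The exporters most often named beside ABCG1 had values near 0. ABCA1, which loads cholesterol onto apolipoprotein A-I, had 71.7 to 97.3 CPM in WD_S and 42.4 to 165 CPM on the heart healthy side, with a value of 0.086 (SE 0.215) that was -0.10 against HHD alone. ABCG5 and ABCG8, the subunits of the pump that returns sterols to the gut lumen, had 0.20 (SE 0.183) and 0.16 (SE 0.172).

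Genes of cholesterol synthesis and its control had no member called. Of 24 tested members, 18 had negative values, beside 53.2% of all genes, and the median log2 fold change was -0.17, with -0.27 in pool 3 and -0.07 in pool 4. An unadjusted p under 0.05 was reached by 8 members, all of them lower in WD_S, beside 1.63% of all genes. SQLE, the epoxidase that opens the path from squalene to sterols (ENSSSCG00000005970, chromosome 4, 14669789 to 14700152), was the largest of them. Its values were 2.39, 3.98 and 8.54 CPM at the lowest, the median and the highest of WD_S. The corresponding heart healthy values were 5.55, 10.8 and 23.0 CPM. In 5 of 7 WD_S libraries SQLE was below every heart healthy library, while WD_S 3 and WD_S 4 lay within the heart healthy range. The means were 4.49 ± 2.28 CPM (SD, n = 7) and 11.8 ± 4.79 CPM (SD, n = 15), and the difference was -1.33 on the log2 scale (SE 0.284, 95% interval -1.92 to -0.75, edgeR adjusted p = 0.453). DESeq2 (adjusted p = 0.00494) and limma (adjusted p = 0.0432) called it. The value was -1.30 in pool 3 and -1.36 in pool 4. Without the 5 libraries with late animal numbers it was -1.38 for SQLE and 1.54 for SCD.

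The enzymes around SQLE had smaller values in the same direction. HMGCS1, an early enzyme of the pathway (chromosome 16, 27936225 to 27957261), ran from 31.1 to 64.0 CPM in WD_S with a median of 42.8, and from 40.3 to 130.4 CPM with a median of 64.5 on the heart healthy side. It differed by -0.54 on the log2 scale (SE 0.198, edgeR adjusted p = 0.9996). MSMO1, which removes methyl groups from sterol intermediates (chromosome 8, 43726834 to 43745784), ran from 19.9 to 41.3 CPM in WD_S and from 26.7 to 63.8 CPM on the heart healthy side. Both genes overlapped between the sides, with 7 and 6 heart healthy libraries respectively at or below the highest WD_S library. MSMO1 had a log2 fold change of -0.47 (SE 0.150). The isomerases EBP and IDI1 had -0.40 and -0.43. ACAT2, which makes acetoacetyl-CoA, had -0.53, the sterol dehydrogenase NSDHL had -0.28 and SREBF2, which encodes SREBP2, had -0.33. INSIG1, an anchor that keeps SREBP inactive when sterol is plentiful, had a positive value of 0.27 (SE 0.283), with WD_S at 80.0 to 169 CPM inside the heart healthy range of 36.6 to 235 CPM.

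Fatty acid desaturation and elongation gave values in both directions. Of 12 tested members 6 were positive and 6 negative, beside 46.8% and 53.2% of all genes. With an unadjusted p under 0.05 there were 1 positive member (SCD) and 3 negative members, beside 2.08% and 1.63% of all genes. FADS1, a desaturase that makes long polyunsaturated fatty acids (ENSSSCG00000024015, chromosome 2, 9735425 to 9747405), was among the tightest. It had 8.22 CPM in the lowest, 10.6 CPM in the median and 11.9 CPM in the highest WD_S library. In heart healthy pigs it had 10.9, 16.4 and 21.1 CPM. All 7 WD_S libraries were within 8.22 to 11.9 CPM, and 4 of the 15 heart healthy libraries reached down into that range. In 4 WD_S libraries FADS1 was below every heart healthy library, as for 0.352% of all genes with 4 or more. FADS1 differed by -0.60 on the log2 scale (SE 0.137, edgeR adjusted p = 0.526). The group means stood in the order 16.9 ± 3.35 CPM (SD, n = 7) in HHD, 14.2 ± 2.66 CPM (SD, n = 8) in HHD_S and 10.2 ± 1.43 CPM (SD, n = 7) in WD_S. The step between the heart healthy groups was -0.25 on the log2 scale, with a 95% interval of -0.54 to 0.04 that includes 0. FADS2, its neighbour on chromosome 2 (9633941 to 9666666), had a log2 fold change of -0.32 (SE 0.144). ELOVL6, which lengthens saturated and monounsaturated fatty acids, had -0.92 (SE 0.384), and -0.54 without HHD 4. Its WD_S values lay between 19.5 and 29.0 CPM, and the heart healthy values were spread from 16.1 to 121 CPM, with 8 of 15 above every WD_S library.

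Of 9 tested genes of fatty acid synthesis, 6 were positive, against 46.8% of all genes, with a median log2 fold change of 0.10. The members with an unadjusted p under 0.05 were SREBF1 and MLXIPL, both higher in WD_S, beside 2.08% of all genes. FASN, the fatty acid synthase itself, had a value of 0.25 (SE 0.183) at 49.5 to 114 CPM in WD_S and 35.5 to 114 CPM on the heart healthy side. MLXIPL, the sugar-sensing transcription factor (chromosome 3, 10898675 to 10934257), had 57.9 to 170 CPM with a median of 76.9 in WD_S and 34.5 to 95.3 CPM with a median of 65.0 on the heart healthy side. Its log2 fold change was 0.57 (SE 0.196). The value was 0.96 in pool 3 and 0.15 in pool 4, and without WD_S 1, the highest library, it was 0.33. MID1IP1, which promotes fatty acid synthesis by acting on acetyl-CoA carboxylase (X chromosome, 34763360 to 34766160), had a log2 fold change of 0.37 (SE 0.105). In 3 WD_S libraries MID1IP1 was above every heart healthy library.

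Genes of sugar digestion, fructose breakdown and glucose release were mostly higher in value in WD_S. Of 18 tested members, 17 had positive values, against 46.8% of all genes, and the median log2 fold change was 0.27. An unadjusted p under 0.05 was reached by 6 members, all higher in WD_S, beside 2.08% of all genes, and none was called. G6PC, which splits phosphate from glucose so that it can leave the cell (ENSSSCG00000036449, chromosome 12, 19965885 to 19975783), had 43.7 CPM in the lowest, 87.7 CPM in the median and 138 CPM in the highest WD_S library. Heart healthy pigs had 13.2, 40.7 and 86.7 CPM. In 4 WD_S libraries G6PC was above every heart healthy library, as for 0.528% of all genes with 4 or more, and WD_S 4 was the low one. The log2 difference was 1.13 (SE 0.340, 95% interval 0.43 to 1.84, edgeR adjusted p = 0.9996). Against HHD_S alone the value was 1.43 and against HHD alone 0.84. SLC2A5, the fructose transporter of the brush border (chromosome 6, 69507829 to 69535794), had 84.7, 124 and 163 CPM at the lowest, median and highest of WD_S. The heart healthy values were 60.5, 86.2 and 159 CPM. WD_S 4 was the one library above every heart healthy library, and HHD_S 2, at 159 CPM, stood apart from the rest of its side, which was at 110.4 CPM or below. SLC2A5 differed by 0.48 on the log2 scale (SE 0.150).

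The remaining members of that list with an unadjusted p under 0.05 were MLXIPL, the gluconeogenic enzyme FBP1 (0.47, SE 0.203), TKFC, which phosphorylates glyceraldehyde from fructose (0.26, SE 0.124), and the hexose transporter SLC2A7 (0.50, SE 0.241). SI, the sucrase-isomaltase that splits sucrose, had a log2 fold change of 0.38 (SE 0.206) at 5347 to 11210 CPM in WD_S and 3745 to 10660 CPM on the heart healthy side. Enterocyte markers as a list had a median of 0.03 (-0.04 in pool 3 and 0.16 in pool 4). Of 14 tested members 8 were positive, against 46.8% of all genes. Their summed level was 41630 to 76280 CPM in WD_S and 25490 to 71490 CPM on the heart healthy side. The part of enterocyte content in the sugar list was not tested.

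Fatty acid oxidation had 10 negative values among 16 tested members, near the 53.2% of all genes, with a median log2 fold change of -0.12. The 4 members with an unadjusted p under 0.05 were all lower in WD_S, beside 1.63% of all genes. They were HADHA and HADHB, the subunits of the mitochondrial trifunctional protein (-0.25 and -0.28), CPT1A, which commits fatty acids to the mitochondrion (-0.51), and the carnitine carrier SLC25A20 (-0.51). HADHA and HADHB are neighbours on chromosome 3, and the coordinates of the former begin at 112753343, just after the latter ends at 112753121. CPT1A ran from 36.6 to 114 CPM with a median of 63.3 in WD_S and from 53.1 to 146 CPM with a median of 93.2 on the heart healthy side. WD_S 1 had the highest CPT1A and SLC25A20 of its group, and without that library the values were -0.70 and -0.70. At the other end, CPT1A was -0.36 without WD_S 3 and SLC25A20 was -0.35 without HHD 4.

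Fat uptake and chylomicron assembly had no member with an unadjusted p under 0.05 among 20 tested. This list had 7 positive values, against 46.8% of all genes, and a median of -0.07. APOA1, a main protein of intestinal lipoproteins, had 14200 to 29020 CPM in WD_S and 4779 to 26040 CPM on the heart healthy side, a log2 fold change of 0.40 (SE 0.290). DGAT1, which completes triglycerides, had 0.19 (SE 0.151), and the lipid droplet protein PLIN2 had -0.26 (SE 0.234), which was -0.10 without WD_S 3. Peptide and amino acid absorption had 17 positive values among 20 tested members, against 46.8% of all genes, and a median of 0.21. Again none had an unadjusted p under 0.05. Its members with the smallest p were the amino acid transporter subunits SLC3A2 (0.31, SE 0.180), SLC7A7 (0.28, SE 0.179) and SLC7A8 (0.42, SE 0.286). Without WD_S 3 the value of SLC7A7 was 0.16.

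In bile acid handling, 6 of 9 tested members were positive, against 46.8% of all genes, with a median of 0.14. With an unadjusted p under 0.05 there were 2 higher members and 1 lower member, beside 2.08% and 1.63% of all genes. NR0B2, a repressor switched on by the bile acid receptor FXR (ENSSSCG00000003565, chromosome 6, 84225670 to 84228156), had 47.7, 60.3 and 128 CPM at the lowest, median and highest of WD_S. Heart healthy libraries had 29.5, 46.9 and 66.2 CPM. The 3 WD_S libraries of pool 3 were above every heart healthy library, and the 4 of pool 4 lay within the heart healthy range. NR0B2 differed by 0.67 on the log2 scale (SE 0.165, edgeR adjusted p = 0.767), with 1.05 in pool 3 and 0.24 in pool 4, and the test of the difference between pools had an unadjusted edgeR p of 0.0151. NR1H4, which encodes FXR itself, had -0.53 (SE 0.255), and -0.35 without the libraries with late animal numbers. FABP6, the bile acid carrier of the ileum, had a log2 fold change of 3.36 that rested on WD_S 1 at 26.1 CPM. The other 6 WD_S libraries were at 1.77 CPM or below and the heart healthy side at 1.63 CPM or below, and without WD_S 1 the value was 0.96.

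Among genes outside the nutrient lists, RELT had the smallest p after ABCG1. RELT, a receptor of the tumour necrosis factor receptor family (ENSSSCG00000014825, chromosome 9, 7833387 to 7852469), had 2.93, 4.14 and 5.98 CPM at the lowest, median and highest of WD_S. The other side had 2.00, 2.67 and 3.40 CPM. In 5 WD_S libraries it was above every heart healthy library, and the 2 sides met between 2.93 and 3.40 CPM. The log2 difference was 0.62 (SE 0.129, edgeR adjusted p = 0.453, DESeq2 adjusted p = 0.0145, limma adjusted p = 0.0432). It was 0.63 against HHD alone, 0.62 against HHD_S alone and 0.62 without the libraries with late animal numbers.

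APOD, a lipocalin that carries small lipids such as arachidonic acid (ENSSSCG00000011831, chromosome 13, 132514546 to 132562594), was spread widely in WD_S. Its values there were 12.7, 27.4 and 66.2 CPM, against 5.49, 12.6 and 29.8 CPM on the heart healthy side. WD_S 1, WD_S 6 and WD_S 7 were above every heart healthy library, and WD_S 3 and WD_S 4 were near the heart healthy median. APOD differed by 1.43 on the log2 scale (SE 0.318, edgeR adjusted p = 0.526, DESeq2 adjusted p = 0.0143, limma adjusted p = 0.304), and by 1.45 without the libraries with late animal numbers. S100A1, a calcium-binding protein best known from muscle (ENSSSCG00000031053, chromosome 4, 96007026 to 96012305), had 2.56 to 4.04 CPM in WD_S and 3.02 to 6.09 CPM on the heart healthy side. It was below every heart healthy library in 3 WD_S libraries and had a log2 fold change of -0.52 (SE 0.138).

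LRRC25, a membrane protein of myeloid cells (ENSSSCG00000036963, chromosome 2, 59401212 to 59405940), had 10.8, 13.9 and 19.9 CPM in WD_S and 7.42, 9.04 and 13.9 CPM on the heart healthy side. Its log2 fold change was 0.56 (SE 0.140), and 5 heart healthy libraries were at or above the lowest WD_S library. PLEK, the leukocyte and platelet protein pleckstrin, had 0.47 (SE 0.132). KCNQ1, a potassium channel of epithelia, had 0.54 (SE 0.148) at 139 to 218 CPM in WD_S and 76.7 to 207 CPM on the heart healthy side. HHAT, which attaches palmitate to hedgehog proteins, had 0.45 (SE 0.116), the cell polarity gene PRICKLE3 had 0.41 (SE 0.115) and the actin-binding TWF2 had 0.33 (SE 0.095). CDX2 had 0.38 (SE 0.117) and was at 186 to 374 CPM in WD_S and 138 to 238 CPM on the heart healthy side.

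On the negative side, CA2, a carbonic anhydrase of the surface epithelium, had 1.29, 1.66 and 3.97 CPM in WD_S and 1.87, 3.46 and 4.94 CPM on the heart healthy side. WD_S 3 was its one high WD_S library. CA2 differed by -0.74 on the log2 scale (SE 0.237). GEMIN5, a protein of the complex that assembles spliceosomal RNA particles, had -0.35 (SE 0.101), and ING3, a subunit of a histone acetyltransferase complex, had -0.34 (SE 0.112). FAM237B had -0.60 (SE 0.187), TECTA, a matrix protein known from the inner ear, had -0.50 (SE 0.164), WDR70 had -0.24 (SE 0.078) and the tumour suppressor NF2 had -0.20 (SE 0.066). The values of NF2 lay within 83.9 to 100.5 CPM in WD_S and 85.0 to 121 CPM on the heart healthy side, and 6 heart healthy libraries were at or below the highest WD_S library.

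**Figure D3:**
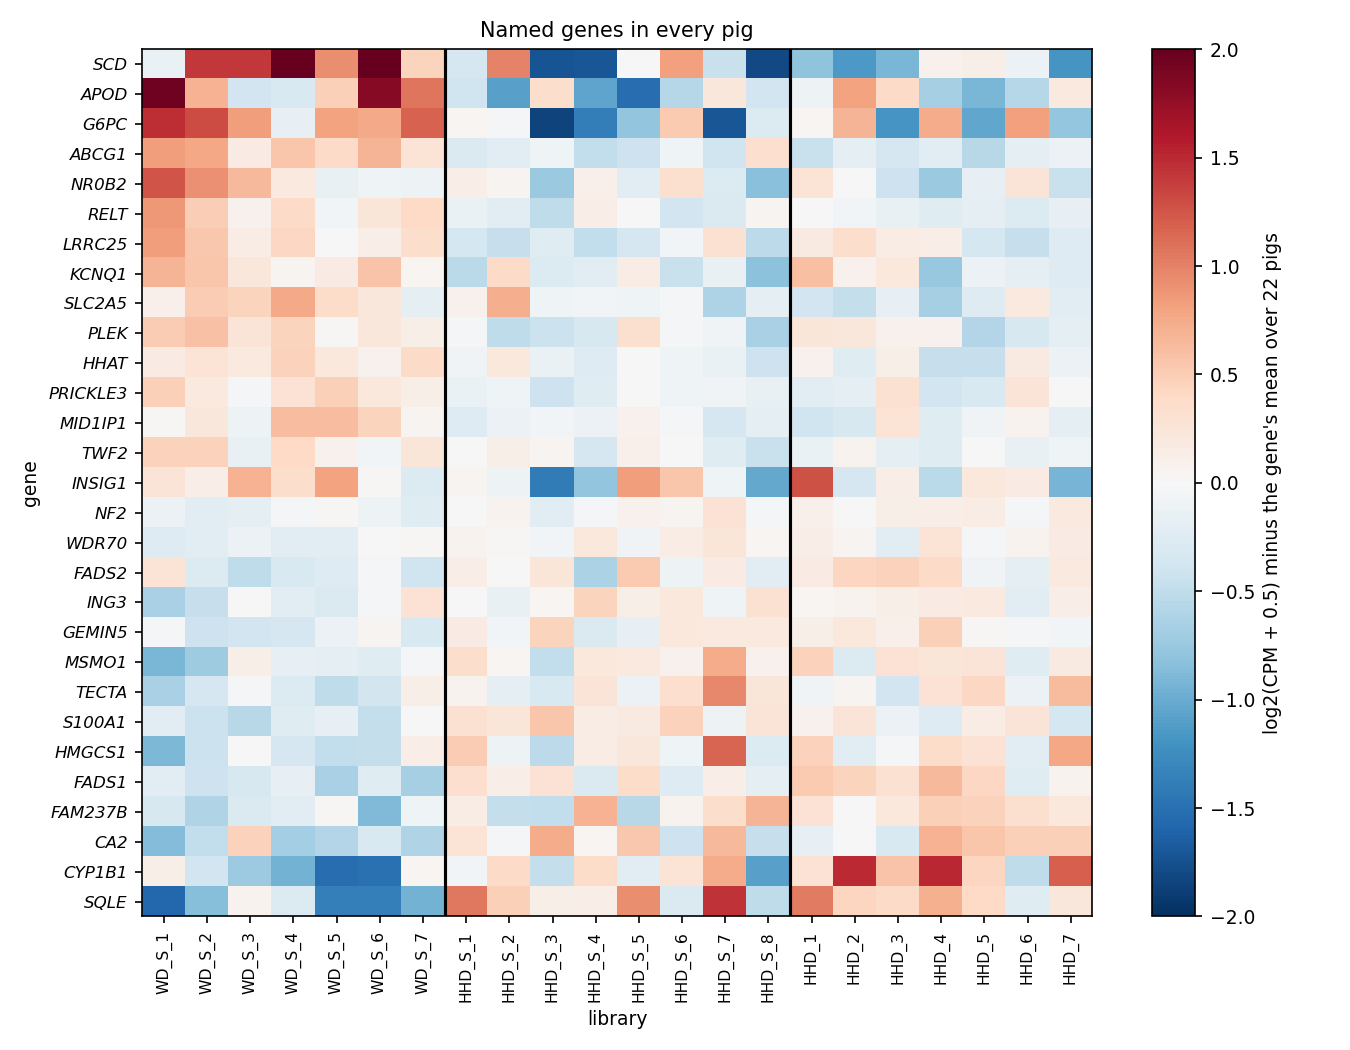
Rows are the 29 genes named by rule and columns are the 22 libraries, ordered by group, with colour for log2(CPM + 0.5) minus the gene's mean over all pigs, capped at 2 in either direction. The ABCG1 row is red in all 7 WD_S columns and otherwise red in HHD_S 8, while INSIG1 varies within every group.

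Xenobiotic and antioxidant genes had 10 negative values among 15 tested, against 53.2% of all genes, with a median log2 fold change of -0.11. The 2 members at an unadjusted p under 0.05 were lower in WD_S, beside 1.63% of all genes. CYP1B1, an oxidising enzyme induced through the aryl hydrocarbon receptor, had 2.10, 4.03 and 7.60 CPM in WD_S and 3.03, 9.12 and 20.8 CPM on the heart healthy side. Its means stood in the order 13.0 ± 6.24 CPM (SD, n = 7) in HHD, 7.42 ± 2.85 CPM (SD, n = 8) in HHD_S and 4.51 ± 2.23 CPM (SD, n = 7) in WD_S. Between the heart healthy groups CYP1B1 had a difference (HHD_S minus HHD) of -0.82, with an unadjusted 95% interval of -1.49 to -0.14. That difference was not called (edgeR adjusted p = 0.9993). Against both groups WD_S differed by -1.11 (SE 0.347), against HHD_S alone by -0.67 and against HHD alone by -1.48. SLC7A11, the cystine transporter, followed the same order with -0.91 against both groups, -0.44 against HHD_S and -1.40 against HHD. Its levels were low, at 0.32 to 0.66 CPM in WD_S and 0.35 to 3.02 CPM on the heart healthy side. The highest value was that of HHD 7, and without that library the log2 fold change against both groups was -0.68. CYP1A1, another target of that receptor, had a value of -2.03 (SE 0.984, edgeR adjusted p = 0.9996), and it ranged from 0 to 7.56 CPM in WD_S and from 0 to 22.6 CPM on the heart healthy side.

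Of the vitamin and mineral genes, 11 of 17 tested were positive, against 46.8% of all genes. MT1A, a metallothionein that binds zinc and copper, had 55.9 to 144 CPM in WD_S and 12.3 to 198 CPM on the heart healthy side, where HHD_S 3 alone was above 65.4 CPM. MT1A had a log2 fold change of 0.99 (SE 0.380). Of 20 circadian clock genes 8 were positive, against 46.8% of all genes. BHLHE40, a repressor of the clock, was the one with an unadjusted p under 0.05, beside 2.08% of all genes in that direction. BHLHE40 differed by 0.47 on the log2 scale (SE 0.138), with 0.69 in pool 3 and 0.24 in pool 4. It was above every heart healthy library in 4 WD_S libraries, as for 0.528% of all genes with 4 or more.

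Type I interferon genes were positive in 23 of 25 tested members, against 46.8% of all genes, with a median of 0.25. None had an unadjusted p under 0.05. The direction was not shared between pools, with a median of -0.42 in pool 3 and 0.78 in pool 4. The members with the widest spread included ISG15 and RSAD2, antiviral proteins induced by interferon. ISG15 was at 256 CPM in WD_S 7, and the other 6 WD_S libraries were at 54.6 CPM or below. RSAD2 was at 525 CPM in WD_S 7 and at 91.1 CPM or below in the others of that group. High values also occurred on the heart healthy side, at up to 75.8 CPM for ISG15 and 158 CPM for RSAD2. Without WD_S 7 the log2 fold changes of ISG15 and RSAD2 were -0.13 and -0.19, against 0.72 (SE 0.618) and 0.87 (SE 0.785) with it. Without all 5 libraries with late animal numbers they were 0.59 and 0.75, and the median of the list was 0.29.

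Genes induced by interferon gamma and of antigen presentation were positive in 7 of 19 tested members, against 46.8% of all genes. Their median was -0.03 (-0.21 in pool 3 and 0.15 in pool 4). Inflammation and NF-kB genes were positive in 16 of 24, with a median of 0.05. Neither list had a member with an unadjusted p under 0.05. RELB, a subunit of NF-kB, had 0.22 (SE 0.120), the chemokine CCL5 had -0.22 (SE 0.173), the epithelial oxidase DUOX2 had 0.29 (SE 0.232) and the antigen-presentation chaperone CD74 had 0.15 (SE 0.209). Of 21 genes of endoplasmic reticulum stress 5 were positive, against 46.8% of all genes, with a median of -0.07.

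No cell type marker passed the test. Tuft cells, rare chemosensory cells of the epithelium, had 6 positive markers among 9, against 46.8% of all genes, and a median of 0.24. An unadjusted p under 0.05 was reached by 4 tuft markers, all higher in WD_S, beside 2.08% of all genes. They were ALOX5 (0.49), GFI1B (0.51), POU2F3 (0.58) and TRPM5 (0.42). POU2F3, the factor that specifies these cells, was low, at 0.46 to 1.14 CPM in WD_S and 0.14 to 0.91 CPM on the heart healthy side. ALOX5 is also expressed by leukocytes. The medians of the tuft list were 0.44 in pool 3 and 0.095 in pool 4. Markers of mast cells and eosinophils were positive in 7 of 7, against 46.8% of all genes, with a median of 0.20 that was 0.39 in pool 3 and 0.046 in pool 4. HPGDS (0.63) and GATA2 (0.39) had an unadjusted p under 0.05, beside 2.08% of all genes, and HPGDS was 1.11 in pool 3 and 0.17 in pool 4.

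Enteroendocrine markers were positive in 11 of 13, against 46.8% of all genes, with a median of 0.17, and somatostatin (SST) had 0.42 (SE 0.192). The median was 0.31 in pool 3 and -0.03 in pool 4, so its sign was not shared between pools. T and natural killer cell markers were negative in 15 of 17, against 53.2% of all genes, with a median of -0.13 and no member at an unadjusted p under 0.05. Here too the sign differed between pools, with medians of 0.02 in pool 3 and -0.24 in pool 4. CD8B had -0.32 (SE 0.178). Lists of goblet cells, crypt stem cells, dividing cells, B and plasma cells, fibroblasts, endothelium, smooth muscle and nerve had medians between -0.02 and 0.14, and that of dividing cells was -0.19 in pool 3 and 0.18 in pool 4. Among them SDC1 (0.45, SE 0.157) and ASCL2 (0.60, SE 0.281) had an unadjusted p under 0.05, beside 2.08% of all genes. ASCL2, a factor of crypt stem cells, was at 3.54 CPM in WD_S 2 and 2.63 CPM in WD_S 1, and its median was 0.88 CPM in WD_S and 1.00 CPM on the heart healthy side. Without WD_S 2 the value of ASCL2 was 0.29. FABP4, a fatty acid carrier of fat cells and capillaries, had -0.58 (SE 0.221).

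**Figure D4:**
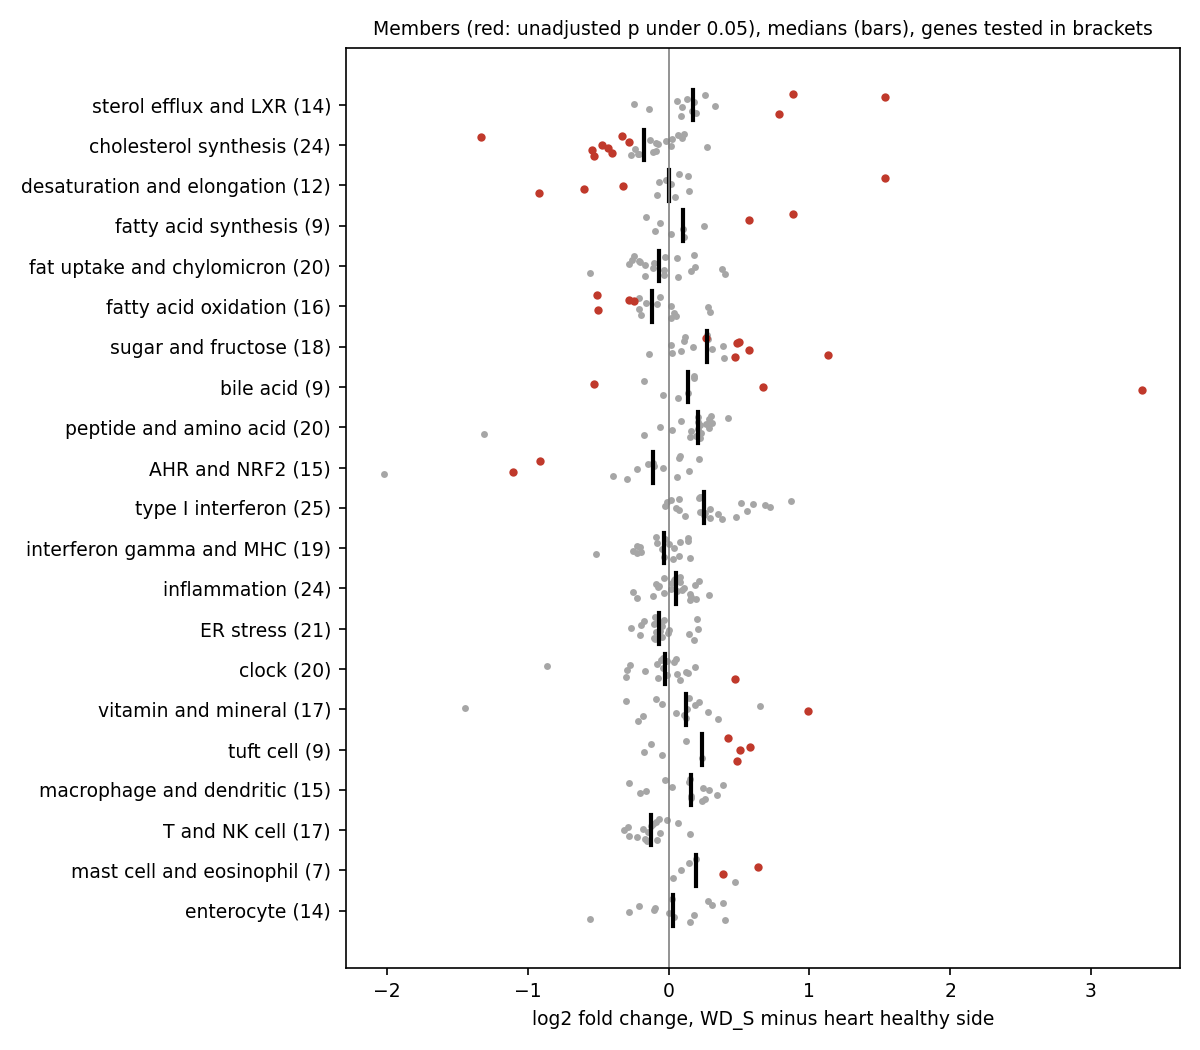
Each point is a tested member of a gene list, placed by its log2 fold change (WD_S minus the heart healthy side), with red for an unadjusted edgeR p under 0.05 and a black bar for the list's median. The sugar list sits mostly to the right of 0 and the cholesterol synthesis list mostly to the left, and FABP6 at 3.36 is the isolated point of the bile acid list.

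Whether the heart healthy groups could stand as one side was examined gene by gene. HHD_S minus HHD gave 0 genes called (0%) by edgeR and 247 genes at an unadjusted p under 0.05 (1.81%). WD_S minus HHD_S gave 0 called (0%) and 398 at an unadjusted p under 0.05 (2.92%), and WD_S minus HHD gave 1 called (0.00734%), ABCG1, and 465 (3.41%). These comparisons share their libraries. The median standard error was 0.155 for WD_S minus HHD_S and 0.162 for WD_S minus HHD, against 0.14 for the comparison with both groups. For SQLE the values were -1.38 against HHD_S and -1.28 against HHD, and the drug difference was 0.09 (95% interval -0.52 to 0.71). For SCD they were 1.40 and 1.71, with a drug difference of 0.32 (95% interval -0.55 to 1.19). Both intervals of the drug difference include 0. Against HHD_S alone and HHD alone, FADS1 had -0.48 and -0.73, and APOD had 1.60 and 1.24. In the same order NR0B2 had 0.64 and 0.71, LRRC25 had 0.67 and 0.44, and S100A1 had -0.63 and -0.37.

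**Figure D5:**
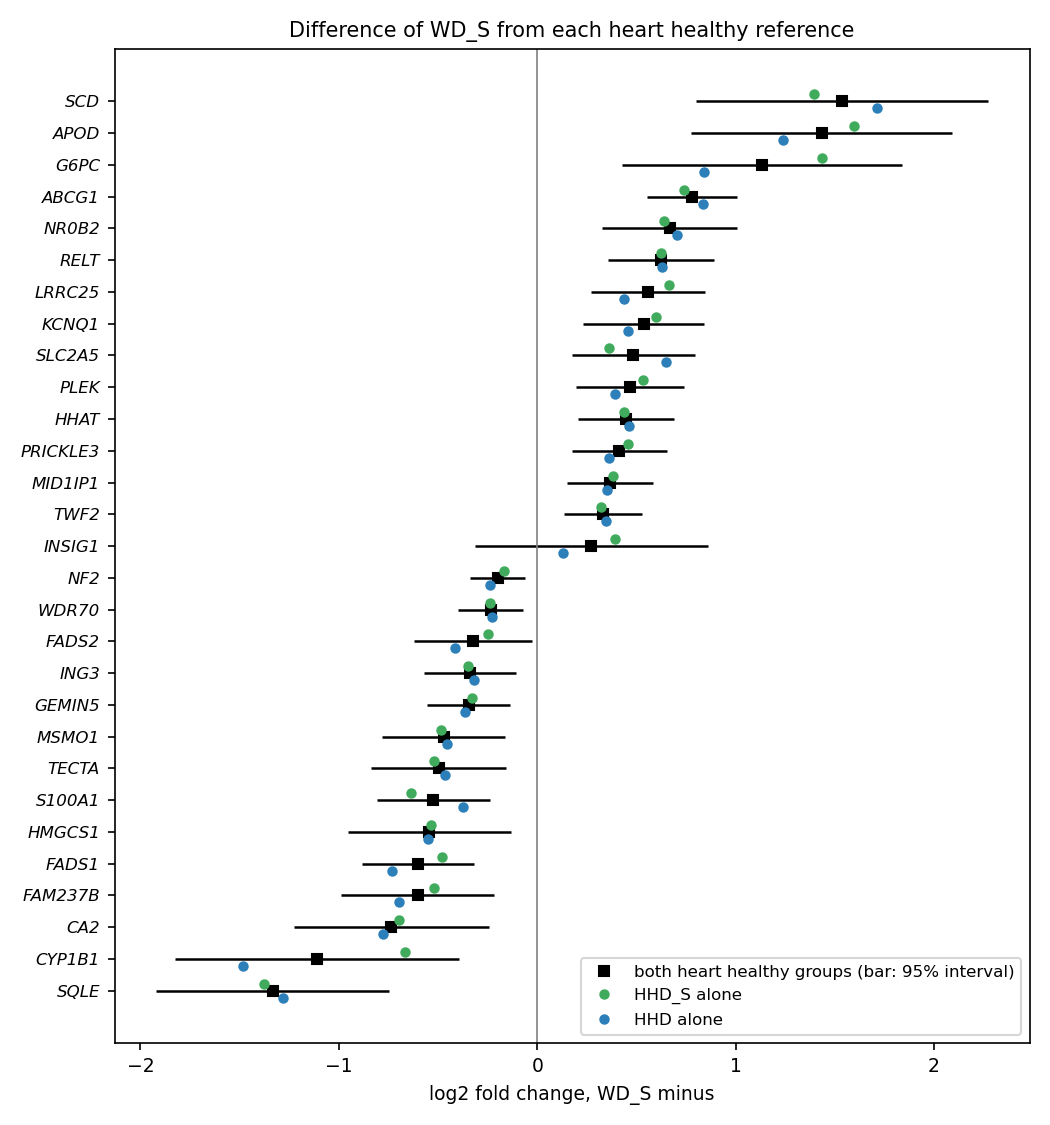
Log2 fold changes of WD_S (horizontal axis) for the 29 genes named by rule, with black squares and 95% intervals against both heart healthy groups, green points against HHD_S alone and blue points against HHD alone. The points of ABCG1 (0.74 and 0.84) and RELT (0.62 and 0.63) lie close together, and those of CYP1B1 (-0.67 and -1.48) and G6PC (1.43 and 0.84) lie apart.

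The library pool, read from the names of the deposited files, was uneven over the groups, with 3 of 7 WD_S and 10 of 15 heart healthy libraries in pool 3. The pools themselves differed at 0 genes called (0%) by edgeR and 678 at an unadjusted p under 0.05 (4.98%). The difference between the sides varied with the pool at 0 genes called (0%) and 112 at an unadjusted p under 0.05 (0.822%). Pool 3 alone gave 0 calls (0%) with 262 genes at an unadjusted p under 0.05 (1.92%), and pool 4 alone 0 calls (0%) with 279 (2.05%).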

How the data were processed

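RNA of jejunal mucosa was sequenced from 22 pigs as single reads of 150 bases, from RNA with a quality number above 8, per the labels' protocols. The deposited values used here are raw counts of uniquely mapped exon reads per gene, made in CLC Genomics Workbench against Sus scrofa 11.1 per the labels' protocols, with a strand setting and annotation release not given in the sources used here. Unique counting makes genes with near-identical copies uncertain. Some genes are not reported here.

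Of 24358 gene identifiers, 17332 had a symbol in the files and 1050 in a table of gene names, and 14894 had a RefSeq span on Sscrofa11.1. Genes with at least 10 counts in enough libraries (filterByExpr) were kept, 13626 in all. Libraries were scaled by TMM (factors 0.890 to 1.12) and fitted with edgeR 4.0.16 in R 4.3.3 by robust quasi-likelihood, with side and library pool as terms, 19 residual degrees of freedom and Benjamini-Hochberg adjustment over all tested genes. The biological coefficient of variation was 25.7%. A fit with 3 groups gave the comparisons with each heart healthy group. The fit was tested on simulated data with 200 changed genes. Alternatives used limma 3.58.1, DESeq2 1.42.0 and sva 3.50.0. Every pair of libraries differed by more than counting error (reduced chi-square of at least 25.2 over 231 pairs).

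The members and gene lists were chosen with earlier results of these data known. Named genes were the 12 with the smallest p in each direction among genes whose mean log2 CPM reached 1, up to 3 of the smallest p in each list, and a fixed set. A further 17 (ACAT2, IDI1, NSDHL, SREBF2, FBP1, TKFC, SLC2A7, CPT1A, TRPM5, CDX2, ABCA1, ABCG5, ABCG8, CCDC89, OVOL1, PPP1R3C and SLC43A1) were named after their values were seen. There were 35 lists, 16 of pathways and 19 of markers, with 442 tested genes.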

Additional observations from a re-analysis of the deposited data

Results flagged for a closer look

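Of 267 pairs of a named gene and a group, 36 had a highest or lowest library set apart by Dixon's criterion. For normally distributed values chance meets it in about 1 of 20 groups. The CPM were not transformed and the genes were partly named for a small p, so that rate need not hold here. All values are CPM, with the next library of the group in brackets.

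Among sterol and fatty acid genes, ABCG1 was at 27.6 in HHD_S 8 (20.6), INSIG1 at 235 in HHD 1 (112) and SREBF2 at 148 in HHD 3 (101). HHD_S 7, one of the 4 libraries apart on component 2, was high for IDI1 at 71.7 (41.3), NSDHL at 30.4 (21.7), ELOVL6 at 121 (52.2), HADHA at 361 (250.4) and SLC25A20 at 56.1 (30.8). ELOVL6 was also at 118 in HHD 4 (61.0). HHD_S 7 was high too for TECTA at 30.1 (19.3), TRIM25 at 78.3 (53.9) and PSMB10 at 234 (138).

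The interferon genes set apart WD_S 7 and HHD 7. ISG15 was at 256 in WD_S 7 (54.6) and 75.7 in HHD 7 (16.5), and RSAD2 was at 525 in WD_S 7 (91.1) and 93.3 in HHD 7 (28.9). HHD 7 also had 75.1 for TRIM25 (47.7), 278 for PSMB10 (130.2) and 3.02 for SLC7A11 (1.05). In WD_S 7 ITGAX was the lowest of its group at 35.9 (61.0).

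Of sugar, bile acid and absorption genes, SLC2A5 was at 159 in HHD_S 2 (102), SLC2A7 was lowest at 38.1 in HHD 4 (115), FABP6 was at 26.1 in WD_S 1 (1.77) and 0.82 in HHD_S 5 (0.15), NR1H4 was at 30.2 in HHD_S 8 (16.8) and SLC7A7 was at 929 in HHD 6 (637). In the remaining groups, HHD_S 5 had 1.27 for SLC7A11 (0.65) and 3.59 for GATA2 (2.04), HHD_S 3 had 198 for MT1A (49.4), and WD_S 3 had 3.97 for CA2 (2.15) and 48.2 for CD8B (31.7). SLC43A1 was at 1.31 in HHD 1 (0.75), and ING3 was lowest at 7.34 in HHD 6 (8.91). HHD 5 had 6.16 for FABP4 (3.21) and the lowest CD68 at 7.60 (13.0) and CDX2 at 138 (204) of its group. The part of library quality or of the animals' state in these values was not tested.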

How the results depend on the processing

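Over 40 alternatives, 3543 of 3554 values of the 89 named genes kept their direction. ABCG1 passed the edgeR threshold in 21 of the 22 alternatives that leave out 1 library and in 11 of the 16 other edgeR alternatives. It did not pass against HHD_S alone (0.74), in pool 3 alone (0.91), in pool 4 alone (0.65), with library totals (0.76) or in a test for more than a 1.5-fold change (0.78). Each of these gave 0 genes called, DESeq2 gave 4 and limma with quality weights 3, and ABCG1 was among the calls of both. Leaving out each library in turn gave 0 to 1 calls and ABCG1 values of 0.71 to 0.86, with the lowest and the 0 without WD_S 1. With library totals the median of all genes moved to -0.0415, from -0.0094.

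The values that changed sign were ASCL2 (-0.091), AIF1 (-0.011), PLIN2 (0.041) and ABCA1 (-0.052) in pool 4 alone, TRIM25 (-0.0041), ISG15 (-0.41), RSAD2 (-0.42) and CCL5 (0.030) in pool 3 alone, and ABCA1 against HHD alone (-0.10). ISG15 ranged from -0.13 to 0.98 and RSAD2 from -0.19 to 1.18 over the fits that leave out a library, and both lowest values were without WD_S 7. Without 1 library, values that kept their sign but moved by over 1.5 times included FASN (0.15 without WD_S 1), ABCG5 (0.12 without WD_S 3), SDC1 (0.29 without WD_S 1), CCL5 (-0.10 without HHD_S 5) and CD74 (0.044 without WD_S 1). The cause of these changes was not tested. All 175 medians of lists under other settings were within 1 SD of the library scores, and 18 changed sign. That limit is wide and does not show that the medians were stable. For type I interferon genes the SD was 0.87, so a move of the median from 0.25 to -0.42 in pool 3 stayed within it.

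HHD_S minus HHD gave 0 calls under RLE scaling, library totals, a filter of 1 CPM in 7 libraries and no filter. So did the test of whether the difference between the sides varied with the pool. The difference between the pools themselves was not rerun in this way. No gene had sides that did not overlap under RLE scaling or library totals. These settings, the Y-linked interaction and the list medians without late animal numbers were added after the data had been seen. No paired analysis was possible because the labels give no replicate number that pairs animals across groups. With 7 WD_S pigs, a gene of median precision has a standard error of 0.14 on the log2 scale. Changes several times that size could also go uncalled by edgeR after adjustment over 13626 genes, as for RELT at 0.62 (SE 0.129, edgeR adjusted p = 0.453). The labels give no sex per pig. Fish oil cannot be told apart from the heart healthy pattern, and the unequal share of atorvastatin bears on the values against both groups but, by the diet labels, not on those against HHD_S alone.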

Other observations

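ABCG1 also varied among the WD_S pigs along with the Y-linked gene KDM5D. The 3 WD_S libraries with KDM5D counts (WD_S 3, WD_S 5 and WD_S 7) had ABCG1 at 24.4, 28.7 and 26.3 CPM, the lowest values of the group, and the 4 without had 32.3 to 39.1 CPM. An interaction of side with a Y-linked covariate (mean log2 CPM of KDM5D and EIF1AY) was tested after these values had been seen. For ABCG1 this interaction was a slope of -0.04 per log2 unit of the covariate (SE 0.025, edgeR adjusted p = 0.811). The library scores of the Y-linked genes had an SD of 4.2 log2 units, so the slope cannot be read as a log2 fold change between pigs. Of 13626 genes, 0 were called by edgeR and 798 had an unadjusted p under 0.05. With no gene differing, a share of about 0.05 would be expected, so this count is not read as a result. No other tool was run on this interaction.

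Several genes outside every list had 5 or more WD_S libraries beyond all 15 heart healthy libraries. Of all genes, 0.117% had 5 or more above and 0.0514% had 5 or more below. CCDC89 had 6 above, at 0.87 to 1.08 CPM in WD_S and 0.44 to 0.87 CPM on the heart healthy side, and a log2 fold change of 0.42 (SE 0.141, edgeR adjusted p = 0.9996). OVOL1, a transcription factor of epithelia, had 5 above at 29.1 to 53.4 CPM in WD_S and 23.6 to 41.2 CPM on the other side, with a value of 0.39 (SE 0.121). PPP1R3C, which targets a phosphatase to glycogen, had 5 WD_S libraries at 19.0 to 26.1 CPM, above every heart healthy library (2.74 to 18.9 CPM), and WD_S 1 and WD_S 2 at 4.69 and 5.54 CPM. Its value was 0.55 (SE 0.334), and it ran from 0.19 without WD_S 3 to 0.75 without WD_S 1. SLC43A1, an amino acid transporter, had 5 below and a value of -0.66 (SE 0.323). Its levels were low, at 0.13 to 0.84 CPM in WD_S and 0.32 to 1.31 CPM on the heart healthy side. WD_S 1 and WD_S 6, at 0.61 and 0.84 CPM, were above the heart healthy median of 0.52 CPM. None of these passed the edgeR test, and they were chosen after their values were seen.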
